A study of Rattus norvegicus with 30 samples.

Results

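The comparison described here asks how much of the oesophageal response to dietary zinc deficiency was still present in rats given a short, early course of an inhibitor of the microRNA miR-31. It sets the 5 arrays of zinc-deficient (ZD) rats treated for 5 weeks against the 5 arrays of untreated zinc-sufficient (ZS) rats, 10 of the 30 arrays in the series, with 1 array per rat. Both groups were male Sprague-Dawley rats without a gene edit, placed on their diet at 4 weeks of age; ZD rats ate freely and ZS rats were pair-fed. The inhibitor (antimiR) is a locked nucleic acid oligonucleotide in saline given by tail vein, starting with 20 mg/kg and going on with 9 smaller doses of 6 mg/kg each. The labels also describe, for rats of both groups, N-nitrosomethylbenzylamine (NMBA), which causes oesophageal tumours in rodents, as 4 intragastric doses of 2 mg/kg from week 5. The arrays come from cohorts of 12 antimiR and 8 ZS rats. The 5 untreated ZD arrays (from 20 rats) and 5 arrays of ZD rats given the antimiR for 20 weeks (from 11 rats) are shown beside them.

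The ZS rats received no control oligonucleotide, so diet and the injections cannot be told apart in this comparison. The labels name 48 hours after the last antimiR dose and 15 weeks after the first NMBA dose as times of sampling, and it is not clear from them which applied to the 5-week rats. If it was the first, age and exposure to NMBA differed between the groups too and cannot be told apart from diet. The array carries no measurement of miR-31, so the degree of inhibition is unknown here.

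Zinc is a cofactor of many enzymes and transcription factors, and the oesophageal lining of rats responds to its lack with hyperplasia and inflammation. Cells keep zinc in balance through SLC39 importers, SLC30 exporters and metallothioneins, small proteins that bind the metal and are switched on by it. miR-31 is a microRNA abundant in squamous epithelium and raised in squamous tumours; it lowers target transcripts that pair with its seed, the stretch near its 5′ end. Known targets include Egln3, an oxygen-sensing prolyl hydroxylase, and Stk40, a repressor of NF-kB signalling.

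The microRNA that the antimiR is directed against, rat miR-31a-5p, lies at chr5:108714906-108714927 on the minus strand of GRCr8 in RefSeq. It is shown because it is the molecule the antimiR is meant to block, and its seed, bases 2 to 8, is in capitals.
rno-miR-31a-5p: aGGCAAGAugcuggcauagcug

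The 250 bases before the start of 5 genes are shown with letters of known control elements in capitals, from the RefSeq promoter table on GRCr8. Serpinb3, Sprr1b and Tmprss11d are among the largest increases and each holds the AP-1 letters TGANTCA, read on both strands. They are the 3 that do so of the 9 largest increases with a promoter in the table, and 2 of 11 of the largest decreases, Aox4 and Klk6, hold the letters too. Bnip3 is the hypoxia gene with the largest increase, and its capitals mark ACGTG or GCGTG, the core of the hypoxia response element, on either strand. Mt1, a metallothionein that did not pass, is shown because its capitals mark 6 matches to the metal response element, searched as TGCACNC or TGCGCNC on both strands. Serpinb3 lies at chr13:23795299-23795548 (minus strand), Sprr1b at chr2:180706356-180706605 (minus), Tmprss11d at chr14:22108279-22108528 (plus), Bnip3 at chr1:203154963-203155212 (minus) and Mt1 at chr19:10832976-10833225 (minus).
Serpinb3: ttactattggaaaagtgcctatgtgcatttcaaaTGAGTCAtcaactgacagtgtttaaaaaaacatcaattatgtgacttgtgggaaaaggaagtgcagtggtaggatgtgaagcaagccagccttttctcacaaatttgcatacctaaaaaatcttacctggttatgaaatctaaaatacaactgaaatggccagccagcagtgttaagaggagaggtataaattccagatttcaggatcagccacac
Sprr1b: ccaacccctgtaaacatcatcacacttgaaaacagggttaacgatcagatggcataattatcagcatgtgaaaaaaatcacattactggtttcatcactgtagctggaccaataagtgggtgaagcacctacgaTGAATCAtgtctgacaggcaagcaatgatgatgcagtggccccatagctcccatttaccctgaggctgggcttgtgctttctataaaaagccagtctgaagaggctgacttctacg
Tmprss11d: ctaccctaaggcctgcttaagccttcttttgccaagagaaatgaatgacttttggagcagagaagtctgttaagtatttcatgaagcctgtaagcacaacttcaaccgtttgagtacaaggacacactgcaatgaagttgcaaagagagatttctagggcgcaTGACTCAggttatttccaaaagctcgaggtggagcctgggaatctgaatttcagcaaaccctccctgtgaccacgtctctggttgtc
Bnip3: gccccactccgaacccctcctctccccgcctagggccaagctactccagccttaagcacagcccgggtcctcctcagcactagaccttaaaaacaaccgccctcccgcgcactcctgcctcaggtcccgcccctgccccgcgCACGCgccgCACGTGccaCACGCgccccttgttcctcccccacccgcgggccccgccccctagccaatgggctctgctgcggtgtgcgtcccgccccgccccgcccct
Mt1: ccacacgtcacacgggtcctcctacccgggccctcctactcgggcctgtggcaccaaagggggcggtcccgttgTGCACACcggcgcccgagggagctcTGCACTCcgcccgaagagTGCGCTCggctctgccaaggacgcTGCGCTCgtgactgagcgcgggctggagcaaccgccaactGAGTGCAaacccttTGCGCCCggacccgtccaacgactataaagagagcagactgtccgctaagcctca

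The AP-1 letters begin at -216, -116 and -87 relative to the start of Serpinb3, Sprr1b and Tmprss11d. Over windows from 250 bases before to 50 after the start, 10 of the 20 matched genes of serpins, cystatins and epithelial proteases held them, against 7.33% of all 27457 promoters. Among all genes that rose, however, only 25 of 546 promoters did (4.58%), against 638 of 11734 tested (5.44%). The hypoxia letters were in 18 of 26 promoters of the hypoxia list, in 365 of 546 genes that rose (66.8%) and in 57.8% of promoters tested. The metal letters were in 12 of 21 zinc gene promoters and 34.9% of promoters tested; of the zinc importers that rose, the window of Slc39a10 held 0 matches and that of Slc39a1 held 1. An NF-kB site was found in 11 of 23 promoters of the inflammatory list and 9.73% of those tested. Matches to the 2 overlapping Bnip3 motifs share letters, and a match describes letters, not a bound site.

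After the 5-week antimiR course the ZD oesophagus still differed widely from the ZS oesophagus. With limma and Benjamini-Hochberg adjustment over 14218 genes, 1291 genes passed an adjusted p of 0.05 (9.08%), 654 higher (4.60%) and 637 lower (4.48%) in the antimiR rats. The split was 50.7% higher here and 60.5% when each array was centred on its median. Large changes leaned downwards: 48 genes rose at least 2-fold (0.338%) and 117 fell at least 2-fold (0.823%). In 1170 genes (8.23%) the 5 and 5 arrays did not overlap, and 829 (5.83%) both passed and did not overlap. The 12 largest increases and 12 largest decreases were picked among these 829, leaving out symbols that only name a locus. Their lack of overlap follows from that choice, and ranks given below hold among the genes so picked. Below, "rose" and "fell" mean past this threshold, differences between group means are in log2 units, each with its fitted standard error (SE), and values are RMA log2 units.

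After processing by RMA the arrays were alike in overall level. Medians of the 10 arrays ran from 5.383 to 5.446, and pairs within a group correlated at 0.9798 to 0.992 (antimiR) and 0.984 to 0.9943 (ZS). The genes called were chosen on these same arrays, so the share of them that each array showed is a description only. Of the 654 genes that rose, 81.8% on array 6, 94.3% on array 7, 97.2% on array 8, 92.8% on array 9 and 91% on array 10 lay above every ZS array. Array 6 had the smallest share of the genes that fell below every ZS array as well, at 78.5%, with 89% to 96.7% on the other four. The number of genes called depended on single arrays: it was 771 without antimiR array 8 and 1547 without array 6.

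Inhibitors of proteases and the proteases themselves were the list with the most increases. Of 26 members measured 8 rose and 2 fell (38.5%, against 9.08% of all genes), with a list median of 0.16. This list and those below were drawn up with earlier results of these data known. An excess of calls over all genes may therefore be partly built in and is a description only. Serpinb3, a serpin of squamous epithelium that blocks cysteine proteases, read 9.10, 9.28, 9.50, 10.18 and 8.38 on antimiR arrays 6 to 10 and 4.87, 4.69, 5.65, 6.30 and 4.99 on ZS arrays 16 to 20. The groups were far apart, with every antimiR array at least as high as 8.38 and no ZS array above 6.30. Serpinb3 rose by 3.99 (SE 0.74, adjusted p = 0.00165), a 15.9-fold difference.

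Stfa2l2, a stefin-type inhibitor of cathepsins, read 8.90, 9.36, 9.41, 8.67 and 8.79 on the antimiR arrays and 5.40, 5.99, 5.67, 8.02 and 6.47 on the ZS arrays. ZS array 19 came nearest to the antimiR range without entering it. Stfa2l2 rose by 2.72 (SE 0.46). Plat, the tissue plasminogen activator, stood at 9.14 to 10.08 in antimiR and 6.38 to 7.91 in ZS rats and rose by 2.41 (SE 0.42). Tmprss11d, a membrane serine protease of airway and squamous epithelium, stood at 8.30 to 9.54 against 5.66 to 7.70 and rose by 1.96 (SE 0.36). These 4 genes had no overlap between groups.

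The smaller increases of the list were Klk10 (0.99, adjusted p = 0.0398), Plau, the urokinase gene (0.60, adjusted p = 0.0372), Serpinb1a (0.32, adjusted p = 0.0428) and the stefin Cstb (0.29, adjusted p = 0.0257), and in each of them the arrays overlapped. The kallikrein Klk6 and the cystatin Cst6 went the other way. Klk6 read 8.07, 7.19, 5.33, 5.49 and 6.46 on antimiR arrays and 9.22, 8.73, 9.72, 9.33 and 8.55 on ZS arrays. Its antimiR values spread over more than 2 units, all below ZS, and it fell by 2.60 (SE 0.57, adjusted p = 0.00519). Cst6 fell by 0.88 (SE 0.18). Klk10, Plau, Serpinb1a and Cstb lost their calls in 7, 7, 9 and 5 of the 10 fits without 1 array (adjusted p up to 0.132), so 4 members rose without antimiR array 8 or ZS array 20 and 5 without antimiR array 9 or ZS array 17 or 18. Several of these genes belong to clustered families, and cross-hybridisation between their members was not tested.

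**Figure D1:**
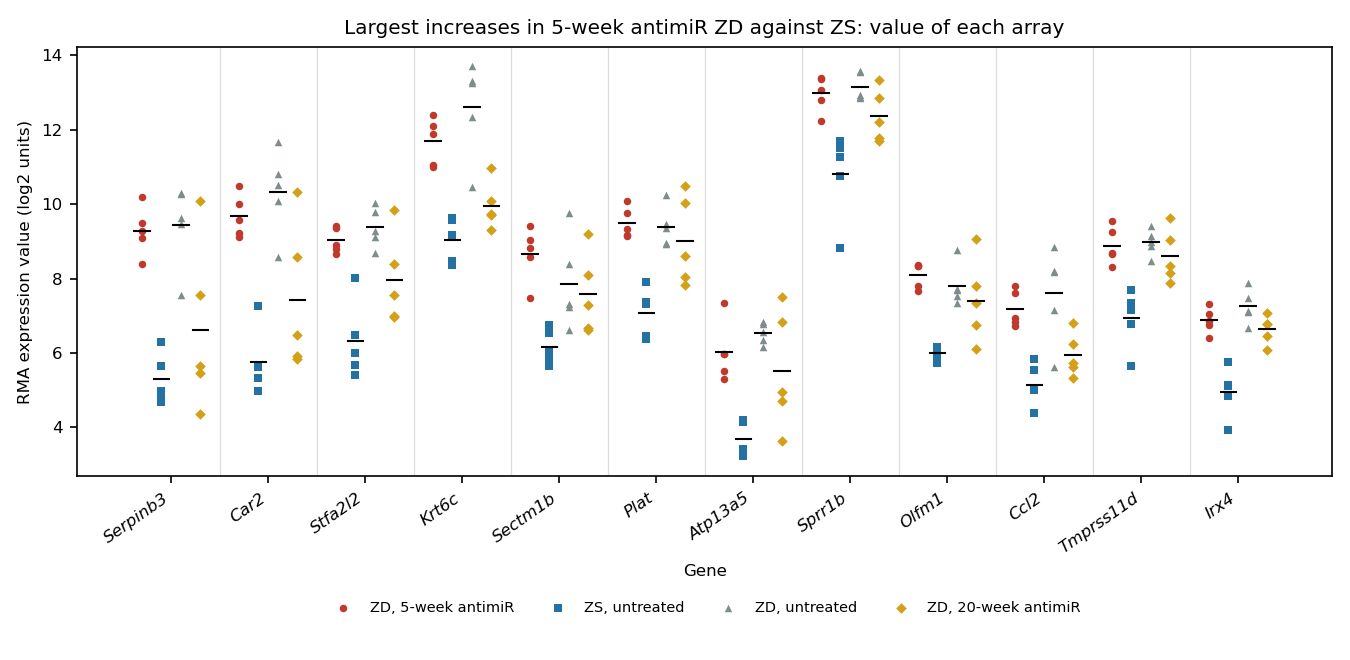
RMA values (log2 units) of the 12 genes with the largest increases, each symbol 1 array and each black bar the mean of 5 arrays. The genes were picked among those without overlap, so the 5-week antimiR arrays (red) all lie above the ZS arrays (blue). Serpinb3 runs from 8.38 to 10.18 against 4.69 to 6.30.

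Keratins and the cornified layer held both large and small changes. Among 17 stress keratin and basal genes 1 rose and 1 fell (11.8%, against 9.08% of all genes). Among 27 cornified envelope and suprabasal genes 2 rose and 2 fell (14.8%). The list medians were -0.18 and -0.01. Krt6c, a keratin of wounded and hyperproliferative epithelium, read 12.11, 11.89, 12.40, 11.01 and 11.05 in antimiR rats and 8.48, 8.36, 9.58, 9.62 and 9.18 in ZS rats. The groups did not overlap and it rose by 2.65 (SE 0.52, adjusted p = 0.00247); 2 further probe sets gave 1.94 and 3.17. Krt17, its usual companion in wounds, read 8.80, 9.40, 9.53, 8.94 and 8.14 against 7.04, 6.78, 7.22, 7.69 and 7.21. These arrays did not overlap either, yet with the spread pooled over all groups its difference of 1.77 (SE 0.61) did not pass (adjusted p = 0.0655), while a fit of the 10 compared arrays alone called it (adjusted p = 0.0042).

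Sprr1b and Sprr2d encode small proline-rich precursors of the cornified envelope. Sprr1b read 12.24, 13.08, 13.37, 13.40 and 12.79 in antimiR rats and 8.82, 11.52, 11.69, 10.75 and 11.27 in ZS rats, so the groups were apart, with ZS array 16 lowest by far. It rose by 2.17 (SE 0.48, adjusted p = 0.00545), and Sprr2d by 1.47 (SE 0.47, adjusted p = 0.0456) with overlapping arrays, a call lost in 7 of 10 fits that left out 1 array (adjusted p up to 0.146). Going down were Elf5, an epithelial transcription factor, at -0.90 (SE 0.15), Col17a1, the hemidesmosomal collagen of basal cells, at -0.79 (SE 0.16), and the desmosomal cadherin Dsc2 at -0.69 (SE 0.19, adjusted p = 0.0202). Dsc2 lost its call without ZS array 19 (adjusted p = 0.07). The main suprabasal keratin Krt13 stood between 13.99 and 14.10 on all 10 arrays (-0.01, adjusted p = 0.924), and the basal keratin Krt14 at 0.04 (adjusted p = 0.925).

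Ion and water transport held both the second largest increase and the second largest decrease among the ranked genes. Of 28 members 2 rose and 3 fell (17.9%). Car2, a cytosolic carbonic anhydrase that itself uses zinc, read 9.22, 10.01, 10.48, 9.58 and 9.13 on antimiR arrays and 4.98, 5.64, 5.62, 7.26 and 5.33 on ZS arrays. The groups were apart by a wide margin even though ZS array 19 stood above the other ZS arrays. Car2 rose by 3.92 (SE 0.65, adjusted p = 0.000624), or 15.1-fold, and a further probe set gave 3.37.

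Atp13a5, a P-type ATPase, read 5.29, 7.33, 5.98, 5.98 and 5.51 against 3.22, 4.14, 4.20, 3.43 and 3.43 and rose by 2.34 (SE 0.51). Fxyd4, a regulator of the sodium pump, read 8.09, 8.31, 5.75, 6.25 and 7.10 in antimiR rats, and in ZS rats 10.57, 10.59, 10.42, 10.49 and 9.94. ZS values were tight and antimiR values loose, with no overlap, and Fxyd4 fell by 3.30 (SE 0.57, adjusted p = 0.000822). The other members that fell were Hsd11b2, which inactivates glucocorticoids so that aldosterone can act, by 1.62 (SE 0.42), and the kinase Sgk1 by 0.42 (SE 0.11). The sodium channel subunits Scnn1a (-0.22), Scnn1b (0.07) and Scnn1g (0.04) did not pass.

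Calls in retinoid, alcohol and aldehyde metabolism all went down. Of 26 members 7 fell and 0 rose, which is 26.9% against 4.48% of all genes lower; the list median was -0.20, against 0.009 over all genes. The mean of the list was 7.18, 6.98, 6.97, 7.05 and 6.97 on antimiR arrays 6 to 10 and 7.72, 7.60, 7.52, 7.69 and 7.59 on ZS arrays 16 to 20, so each antimiR array lay below each ZS array. This mean includes the 7 genes that fell, so the separation partly restates their calls and is a description only. Aox4, an aldehyde oxidase able to make retinoic acid, read 5.43, 4.74, 6.60, 6.82 and 6.09 against 10.85, 9.74, 8.40, 10.24 and 8.36. It was the largest decrease among the ranked genes, by 3.58 (SE 0.73, adjusted p = 0.00282), 12.0-fold lower, without overlap.

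The alcohol dehydrogenases Adh6a and Adh1c fell by 2.59 (SE 0.64, adjusted p = 0.0115) and 2.01 (SE 0.49, adjusted p = 0.00977). Adh6a read 7.05, 6.54, 5.17, 5.16 and 5.29 on antimiR arrays and 8.17, 8.42, 7.90, 10.21 and 7.46 on ZS arrays, again without overlap. Cyp26b1, which degrades retinoic acid, read 9.85, 9.06, 8.54, 8.59 and 9.21 against 10.48, 10.72, 10.55, 10.55 and 11.03 and fell by 1.62 (SE 0.25, adjusted p = 0.000312); another probe set gave -1.43. Lrat, which stores retinol as ester, fell by 1.26 (SE 0.28), and the retinal dehydrogenases Aldh1a2 and Aldh1a3 by 1.11 (SE 0.28) and 0.65 (SE 0.19), the latter call being lost in 6 of 10 fits that left out 1 array (adjusted p up to 0.106). Genes that store retinol and genes that make and clear retinoic acid were among those that fell. The receptors Rara (-0.04), Rarb (0.07) and Rarg (-0.06) did not pass.

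Inflammatory genes were raised in part. Of 33 NF-kB targets and inflammatory genes 6 rose and 1 fell (21.2%), and 26 stood above 0, with a median of 0.17. The monocyte chemokine gene Ccl2 read 6.83, 7.81, 6.93, 7.60 and 6.72 on antimiR arrays and 5.85, 5.53, 5.00, 4.38 and 5.00 on ZS arrays. The groups did not overlap and Ccl2 rose by 2.03 (SE 0.52, adjusted p = 0.0138). The neutrophil chemokine gene Cxcl1 rose by 1.35 (SE 0.40, adjusted p = 0.0353), the prostaglandin E synthase Ptges by 0.98 (SE 0.26), Bcl3 by 0.64 (SE 0.17), Plau by 0.60, and Nfkbia, the NF-kB inhibitor induced by NF-kB itself, by 0.58 (SE 0.13, adjusted p = 0.00661). With antimiR array 10 left out, 3 members rose in place of 6. Cxcl1 and Plau lost their calls in 6 and 7 of the 10 fits that left out 1 array, Ptges without antimiR array 8 (adjusted p = 0.0656) and Bcl3 without antimiR array 10 or ZS array 19.

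The inducible cyclooxygenase Ptgs2 read 3.45, 6.76, 4.20, 3.37 and 4.20 in antimiR rats and 3.08, 3.26, 3.04, 3.04 and 3.09 in ZS rats. All antimiR arrays lay above ZS, but only array 7 was far above, and the difference of 1.29 (SE 0.68) did not pass (adjusted p = 0.253). Values near 3 are close to the lowest on the arrays and may be background. S100a8, a subunit of calprotectin, read 9.82, 10.63, 10.18, 8.49 and 9.09 against 6.25, 7.21, 9.28, 3.84 and 6.58, with ZS array 18 inside the antimiR range; its difference of 3.01 (SE 0.98) narrowly missed (adjusted p = 0.0528). S100a9 (1.55, adjusted p = 0.435) did not pass either.

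Il1a, an alarm cytokine stored in epithelial cells, was the member that fell. It read 7.74, 7.19, 6.49, 5.97 and 6.43 on antimiR arrays and 8.27, 8.73, 8.22, 8.37 and 7.87 on ZS arrays. All antimiR values were below all ZS values, and Il1a fell by 1.52 (SE 0.34, adjusted p = 0.00587), with -1.29 in another probe set. Interferon genes were near background: 1 of 23 rose (4.35%), Ifit2 at 0.96 (adjusted p = 0.0425), a call lost in 8 of 10 fits that left out 1 array.

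Hypoxia and glycolysis genes rose in 5 of 28 cases and fell in 2 (25%), with a median of 0.15. The oxygen-regulated factor Hif1a read 11.41, 11.57, 11.70, 11.54 and 11.30 in antimiR rats and 10.80, 11.02, 10.72, 10.80 and 10.72 in ZS rats, without overlap, and rose by 0.69 (SE 0.13, adjusted p = 0.00173). The mitophagy gene Bnip3, whose promoter is printed above, rose by 1.01 (SE 0.23), the glycolytic regulators Pfkfb3 and Pfkp by 0.81 (SE 0.17) and 0.46 (SE 0.11), and the glucose transporter Slc2a1 by 0.49 (SE 0.15). The groups overlapped for Pfkfb3, whose other probe sets gave 0.21 and -0.03 without passing, and the mean of its probe sets gave 0.33. Vegfa (0.36, adjusted p = 0.0913), Ldha (0.48, adjusted p = 0.0627) and Adm (0.32, adjusted p = 0.559) did not pass. The 2 that fell were Egln3 and Ankrd37 (-0.44, adjusted p = 0.0297). Slc2a1 lost its call in 7 of 10 fits that left out 1 array and Ankrd37 in 4.

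Zinc transport genes changed selectively. Of 25 measured 3 rose and 1 fell (16%), with a median of -0.01. Slc39a10, a plasma membrane importer, read 10.28, 10.87, 10.98, 10.69 and 10.67 on antimiR arrays and 8.95, 9.22, 9.08, 9.23 and 9.12 on ZS arrays. The groups were more than 1 unit apart at their nearest, and Slc39a10 rose by 1.58 (SE 0.27, adjusted p = 0.000822), 2.99-fold. A related importer, Slc39a2, read 5.88, 5.80, 5.86, 5.55 and 6.15 against 6.98, 6.68, 6.92, 7.05 and 7.17 and fell by 1.11 (SE 0.24, adjusted p = 0.00514). These importers moved in opposite directions, each without overlap. Slc39a1 (0.23, adjusted p = 0.0171) and the exporter Slc30a7 (0.39, adjusted p = 0.0477) rose by little; Slc39a1 lost its call without antimiR array 9 or ZS array 20 and Slc30a7 in all 10 fits that left out 1 array. The intestinal importer Slc39a4 (-0.06, adjusted p = 0.821) and the metallothioneins Mt1 (0.21, adjusted p = 0.492) and Mt2A (0.20, adjusted p = 0.721) did not pass.

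**Figure D2:**
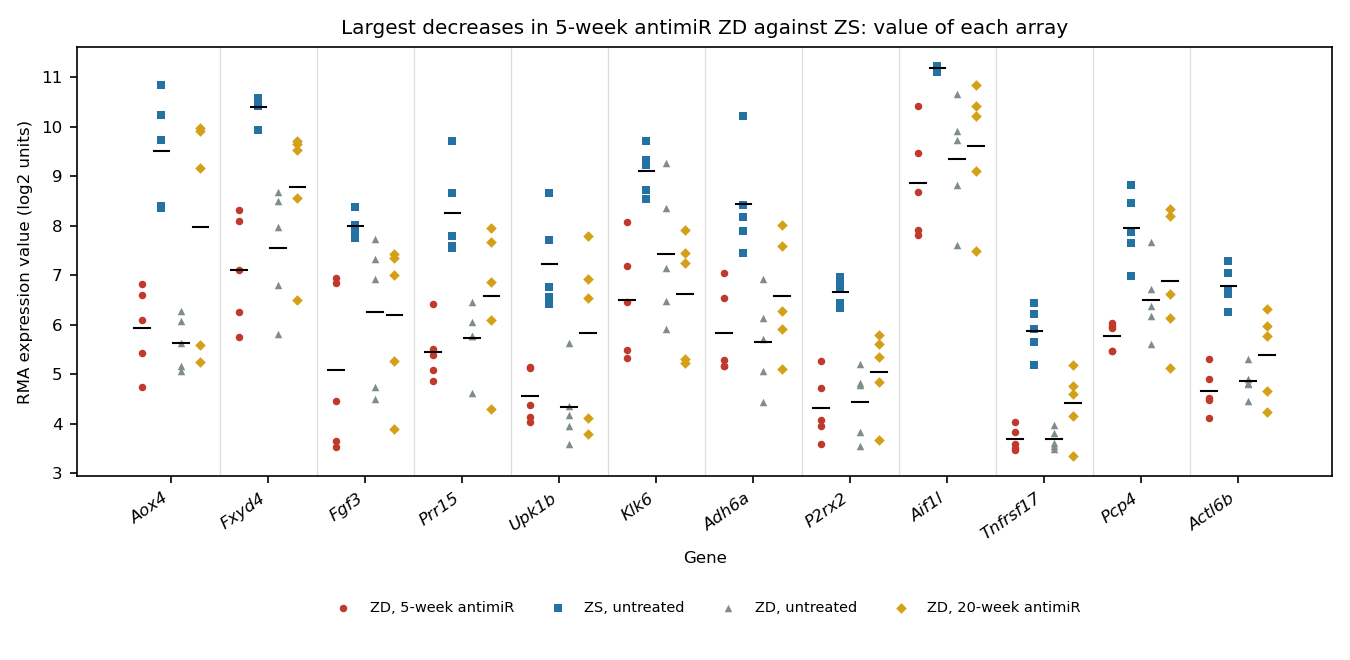
RMA values (log2 units) of the 12 genes with the largest decreases, each symbol 1 array and each black bar the mean of 5 arrays. The genes were picked among those without overlap, so the 5-week antimiR arrays (red) all lie below the ZS arrays (blue). Aox4 runs from 4.74 to 6.82 against 8.36 to 10.85.

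Published targets of miR-31 were not shifted upward as a group relative to ZS. Of 35 measured 2 rose and 5 fell (20%), 17 stood above 0 and 18 below, and the list median was -0.02. Against untreated ZD rats the list median was 0.0, with 18 members above 0 and 17 below, and 0 passed. Egln3 read 8.51, 8.15, 7.87, 7.75 and 7.81 on antimiR arrays and 9.26, 9.47, 9.75, 8.68 and 9.38 on ZS arrays; all antimiR arrays lay below ZS and it fell by 1.29 (SE 0.23, adjusted p = 0.00113). Stk40 read 6.74, 6.93, 6.95, 7.25 and 7.30 against 7.40, 7.33, 7.55, 7.57 and 7.39. Here the groups nearly touched, and Stk40 fell by 0.41 (SE 0.08, adjusted p = 0.00201). Both were lower in untreated ZD rats too, at -0.91 for Egln3 (adjusted p = 0.00913) and -0.40 for Stk40 (adjusted p = 0.00175) against the same ZS arrays with limma.

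Also lower in antimiR than in ZS rats were the sphingomyelin synthase Sgms1 by 0.73 (SE 0.11), where another probe set gave 0.15, the phosphatase subunit Ppp6c by 0.40 (SE 0.08) and the deubiquitinase Bap1 by 0.34 (SE 0.06). Higher were Myo5a, a vesicle motor, by 1.16 (SE 0.14, adjusted p = 3.6e-05) and the circadian gene Clock by 0.37 (SE 0.10, adjusted p = 0.0143). Myo5a read 6.82, 7.13, 7.32, 7.10 and 7.06 against 5.90, 5.99, 5.72, 6.15 and 5.89, without overlap. Other probe sets of Clock gave 0.25, 0.29 and 0.51, with none passing. Other targets such as Lats2 (0.14), Rasa1 (0.28) and Smad4 (-0.18) did not pass. Transcript sequences were not used here, so pairing of the seed with these rat transcripts was not examined.

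Growth factor genes changed in both directions. In the EGF family 2 of 14 rose and 1 fell (21.4%). Egf read 8.71, 8.95, 9.63, 9.75 and 8.73 on antimiR arrays and 8.13, 7.64, 7.79, 7.89 and 7.50 on ZS arrays and rose by 1.36 (SE 0.37, adjusted p = 0.0202); the call was lost without antimiR array 8 or 9 (adjusted p up to 0.063). The ERBB ligand Nrg1 rose by 0.89 (SE 0.23, adjusted p = 0.0163), a call lost without ZS array 19 (adjusted p = 0.0558). Its 7 other probe sets gave -0.03 to 0.85 with none passing, and the mean of all of them gave 0.39. Btc fell by 0.34 (SE 0.09). Outside the family, Fgf3 read 6.95, 6.84, 3.65, 3.54 and 4.46 against 7.95, 8.02, 8.39, 7.90 and 7.75. Its antimiR arrays split, with arrays 6 and 7 about 1 unit and arrays 8 to 10 over 3 units below ZS, and Fgf3 fell by 2.92 (SE 0.73, adjusted p = 0.012).

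Detoxification genes were divided. Of 26 Nrf2 and xenobiotic genes 2 rose and 4 fell (23.1%). Gstm1, a glutathione transferase, and the cystine transporter Slc7a11 rose by 1.02 (SE 0.18) and 1.03 (SE 0.19), while the thioredoxin reductase Txnrd1 (-0.66, SE 0.11), Taldo1 (-0.34, SE 0.08) and Gsta1 (-1.02, SE 0.24) fell. Cyp1b1, a cytochrome that activates procarcinogens, read 6.18, 5.77, 5.74, 6.59 and 5.61 in antimiR rats and 7.16, 7.97, 7.62, 7.56 and 7.73 in ZS rats. It fell by 1.63 (SE 0.24, adjusted p = 0.000205) without overlap.

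Among clock genes 1 of 16 rose and 3 fell (25%). Hlf, an output transcription factor of the clock, read 6.47, 6.63, 6.54, 7.22 and 7.17 against 7.93, 8.06, 8.06, 8.03 and 8.17 and fell by 1.24 (SE 0.22, adjusted p = 0.00113). Tef fell by 0.65 (SE 0.17, adjusted p = 0.018) and the repressor Cry2 by 0.56 (SE 0.16, adjusted p = 0.0305), and left-out arrays ended the call of Tef (antimiR array 8 or ZS array 18; highest adjusted p = 0.0577) and that of Cry2 (in 5 of 10 fits). The hour of sampling was not given in the sources used here, so its part was not tested. Of 19 immediate early genes 3 rose and 0 fell (15.8%): Junb, a component of AP-1, by 0.52 (SE 0.13, adjusted p = 0.00982), Klf2 by 0.78 (adjusted p = 0.0289) and Dusp1 by 0.65 (adjusted p = 0.032). Of 4 other probe sets of Klf2, the brightest gave -0.20 and the rest 0.17, 0.24 and 0.66, with none passing, and the calls of Klf2 and Dusp1 were lost in a fit of the 10 compared arrays alone (adjusted p = 0.0608 and 0.0894) and in 7 and 4 of the 10 fits without 1 array.

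The remaining large differences were spread over many functions. Sectm1b, a secreted ligand of T and natural killer cells, read 7.48, 8.83, 9.42, 9.03 and 8.57 on antimiR arrays and 6.74, 6.03, 5.80, 5.65 and 6.55 on ZS arrays and rose by 2.51 (SE 0.46). Olfm1, a secreted glycoprotein, rose by 2.11 (SE 0.34, adjusted p = 0.000579), with 7.67 to 8.36 against 5.74 to 6.15, and another probe set gave 1.35. The homeobox gene Irx4 rose by 1.92 (SE 0.27, adjusted p = 0.000134), and its other probe set, at 2.96 in both groups and so near the low end of the arrays, gave 0.01.

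Tnfrsf17, a receptor of plasma cells, read 4.03, 3.60, 3.83, 3.52 and 3.46 in antimiR rats and 6.21, 5.65, 5.92, 6.44 and 5.18 in ZS rats. It fell by 2.19 (SE 0.25, adjusted p = 1.64e-05), and another probe set gave -1.26. Also falling were Prr15 (-2.81, SE 0.52), the uroplakin Upk1b (-2.67, SE 0.60), the ATP-gated channel P2rx2 (-2.35, SE 0.35), the calmodulin regulator Pcp4 (-2.19, SE 0.47) and the chromatin remodelling subunit Actl6b (-2.11, SE 0.35). Aif1l, an actin-bundling protein gene, read 10.43, 9.47, 7.91, 7.81 and 8.68 against ZS values of 11.11 to 11.22. It fell by 2.32 (SE 0.53); the ZS arrays were nearly identical and the antimiR arrays spread over more than 2 units. All 24 genes named by rank passed in each of the 10 fits that left out 1 array of these groups. They were chosen on these same arrays for passing without overlap, so this is a description only.

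Cell cycle genes showed no call. Of 38 measured 0 passed in either direction with limma, 0 had an unadjusted p under 0.05, and 12 stood above 0, with a median of -0.09. The mean of the list was 6.30, 6.86, 7.54, 8.29 and 6.95 on antimiR arrays 6 to 10 and 7.27, 7.35, 7.21, 7.18 and 7.42 on ZS arrays 16 to 20. The antimiR arrays thus reached both below and above the narrow ZS range. Mki67, the proliferation marker, read 6.78, 7.70, 8.93, 9.76 and 7.77 against 8.43, 8.62, 7.96, 8.50 and 8.53 (-0.22, SE 0.43, adjusted p = 0.818). The median of the list ran from -0.37 to 0.12 as single arrays were left out.

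Markers of the tissue itself were checked next. Defining genes of oesophageal epithelium were high in both groups, with list means of 11.91 to 12.01 in antimiR and 12.00 to 12.14 in ZS rats, and 1 of 12 fell (8.33%), Dsc2. The labels name epithelium as the material, a layer that holds little muscle, yet muscle markers were well measured. Smooth muscle genes were lower in antimiR rats: 5 of 15 fell (33.3%), 15 of 15 stood below 0 and the median was -1.24. Their mean was 8.26, 7.26, 8.68, 9.28 and 7.58 on antimiR arrays and 9.37, 9.16, 8.84, 10.22 and 9.42 on ZS arrays, overlapping only through antimiR array 9. Actg2 (-1.64, adjusted p = 0.0397), Tagln (-1.65, adjusted p = 0.039), Myl9 (-1.68, adjusted p = 0.038), Cnn1 (-1.76, adjusted p = 0.0402) and Des (-1.24, adjusted p = 0.0491), all contractile or filament genes of muscle, were the 5 that fell.

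These calls were not stable: between 0 and 11 smooth muscle genes fell as single arrays were left out, with 11 without antimiR array 9 and 0 without antimiR array 7 or 10 or ZS array 16, 19 or 20. In bulk RNA, fewer cells of a type and less RNA per cell cannot be told apart. With the smooth muscle mean of each array as a covariate 291 genes passed, 240 of them among the 1291, and 14 of the 24 genes named by rank, among them Serpinb3 and Car2, still did. This covariate differs between the groups, so that fit also removes some of the difference between them. In it 137 of the 14218 genes rose and 154 fell. Of 26 protease genes 4 rose and 1 fell, of 26 retinoid genes 0 rose and 1 fell, and of 33 inflammatory genes 0 rose and 1 fell. With so few calls over all genes, a count of 0 or 1 in a list carries little weight.

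Other tissue markers moved less. Skeletal muscle had 0 of 20 called, with list means from 5.41 to 9.36 in antimiR and 5.82 to 9.26 in ZS rats, a wide spread between rats of either group. For fibroblasts and matrix the list median was -0.36, and Lox, which cross-links collagen, was the 1 of 21 that rose (1.08, SE 0.26). Endothelial and pericyte genes had a median of 0.26 and 2 of 15 rose (13.3%), Rgs5 by 1.10 (SE 0.21) and Kdr by 0.65 (adjusted p = 0.0481), though the other probe set of Kdr, at a low 3.76 and 3.69, gave 0.07 and its call was lost in 8 of 10 fits that left out 1 array. Macrophage (0 of 19), T and B cell (0 of 16), neutrophil and mast cell (0 of 13), erythroid (0 of 5) and nerve (0 of 11) markers had no call with limma; at an unadjusted p under 0.05 the counts were 0, 0, 0, 1 and 1, and 1 for skeletal muscle. In a fit of the 10 compared arrays alone, however, 3 of the 16 T and B cell genes were higher in antimiR rats, among them the T cell receptor subunits Cd3e (0.57, adjusted p = 0.0178; 0.262 in the fit of 30 arrays) and Cd3g (0.71, adjusted p = 0.0327; 0.294), and 2 were higher in a fit of the 20 arrays without a gene edit. Over all 14218 genes, 575 were higher in the fit of 10 arrays and 558 in the fit of 20 arrays. Another probe set of Cd3e, at a low 3.23 in both groups, gave 0.01. On the probe set used, ZS array 19 was low for Cd3e, at 4.50 against 5.05 to 5.22 on the other ZS arrays. Among adipocyte genes 1 of 11 rose, Pparg by 0.73 (adjusted p = 0.0399), a regulator that epithelium also expresses. Its call was lost in 8 of 10 fits that left out 1 array.

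**Figure D3:**
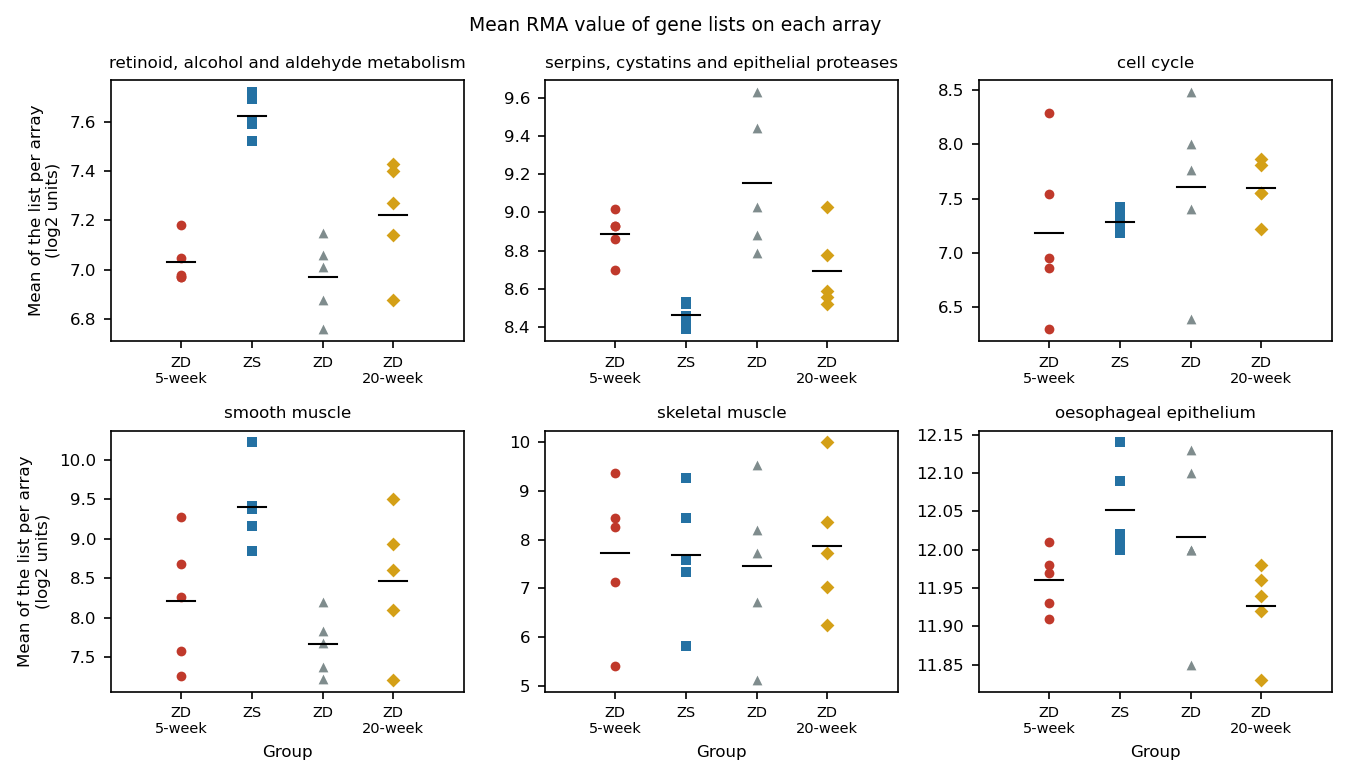
Mean RMA value (log2 units) of 6 gene lists on each array, by group, with black bars for the group mean and a vertical scale of its own in each panel. The retinoid list separates 5-week antimiR arrays (6.97 to 7.18) from ZS arrays (7.52 to 7.72), while cell cycle and skeletal muscle means overlap. The lists were drawn up with earlier results of these data known, and each mean includes the genes called.

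**Figure D4:**
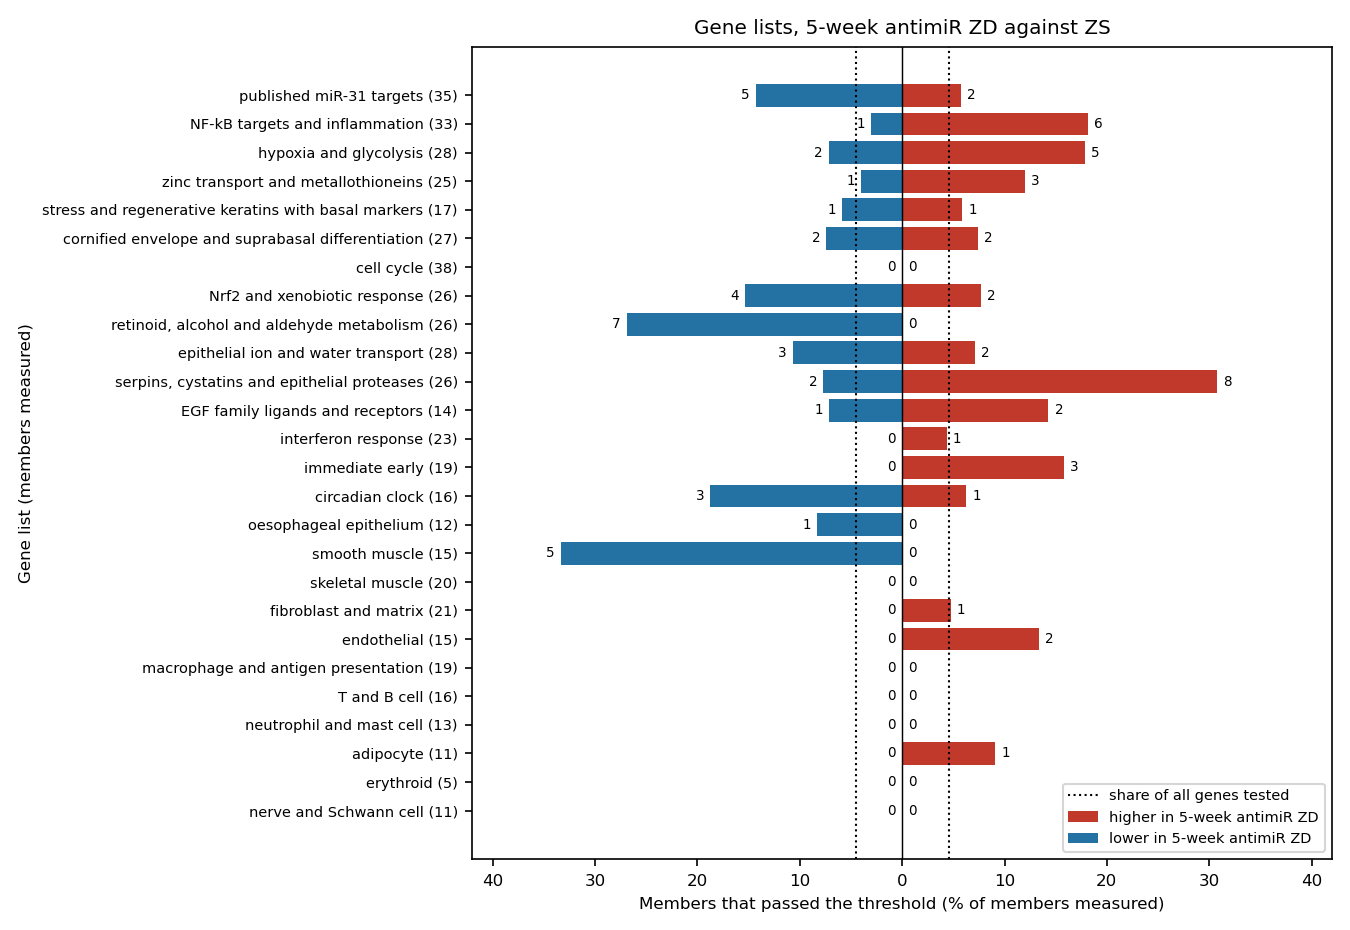
Share of each list's measured members that passed the threshold in 5-week antimiR ZD against ZS, to the right for higher and to the left for lower, with the number of members at each bar. Dotted lines mark the shares over all genes, 4.60% higher and 4.48% lower. Proteases (8 of 26 higher) and smooth muscle (5 of 15 lower) have the longest bars. The lists were chosen with earlier results of these data known.

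Without antimiR, 1977 genes differed between ZD and the same 5 ZS arrays (13.9%). The direct comparison of 5-week antimiR with untreated ZD rats, in which ZS levels play no part, gave 0 genes (0.00%) with limma, a smallest adjusted p of 0.064 (S100g and RGD1305537) and 1021 genes (7.18%) at an unadjusted p under 0.05. S100g, a calcium-binding protein gene, stood at -0.97 (SE 0.17) against untreated ZD and at 0.15 against ZS. A count of 0 with 5 arrays a group does not show that the groups were alike.

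Since both share the ZS arrays, differences from ZS are given side by side. Among the 24 genes named by rank the values lay close together for some and apart for others. Serpinb3 stood at 3.99 with the antimiR and 4.15 without, Car2 at 3.92 and 4.56, Aox4 at -3.58 and -3.88, and Tnfrsf17 at -2.19 and -2.19. Fgf3 stood at -2.92 and -1.75 (adjusted p = 0.11 in untreated ZD), Klk6 at -2.60 and -1.67 (adjusted p = 0.0503), Sectm1b at 2.51 and 1.71, and Pcp4 at -2.19 and -1.46. The stress keratins stood at 2.65 and 3.57 (Krt6c) and 1.77 and 3.22 (Krt17), and Ptgs2 at 1.29 and 3.87. Hypoxia genes without a call after the antimiR included Adm, at 0.32 and 1.48, Vegfa, at 0.36 and 0.82, and Ndrg1, at 0.17 and 1.38. The reverse held for Il1a (-1.52 and -0.28), C1qtnf3, a secreted C1q-related protein (-1.08 and 0.00), Grxcr1 (1.36 and 0.44) and Egf (1.36 and 0.80), which passed only with the antimiR. With 0 genes called in the direct limma comparison, no difference of these genes between antimiR and untreated ZD passed. Among genes that passed against ZS, Il1a, C1qtnf3, Grxcr1, Fgf3, Klk6 and Krt6c were named for differing most from untreated ZD. Their gaps therefore follow from that choice.

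In the rats given the antimiR for 20 weeks, 516 genes differed from the same ZS arrays (3.63%). Serpinb3 read 7.56, 10.08, 5.66, 5.46 and 4.35 on their arrays 1 to 5 and Car2 8.58, 10.33, 6.49, 5.91 and 5.84. Thus 3 of these 5 arrays stood near ZS values and 2 near ZD values, whereas all 5 arrays of the 5-week rats stood with untreated ZD (7.57 to 10.31 for Serpinb3). Krt6c stood at 0.92 after 20 weeks against 2.65 after 5 weeks, Cyp26b1 at -0.66 against -1.62, Egln3 at -0.28 against -1.29 and Slc39a2 at -0.20 against -1.11. Others were alike in size: Slc39a10 at 1.13 and 1.58, Egf at 1.38 and 1.36, Stk40 at -0.45 and -0.41, Klk6 at -2.48 and -2.60. The 20-week and 5-week rats were not compared directly, so no gap between them was tested. Most of these genes were also named by their 5-week values, which tends to make the 20-week values look smaller.

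**Figure D5:**
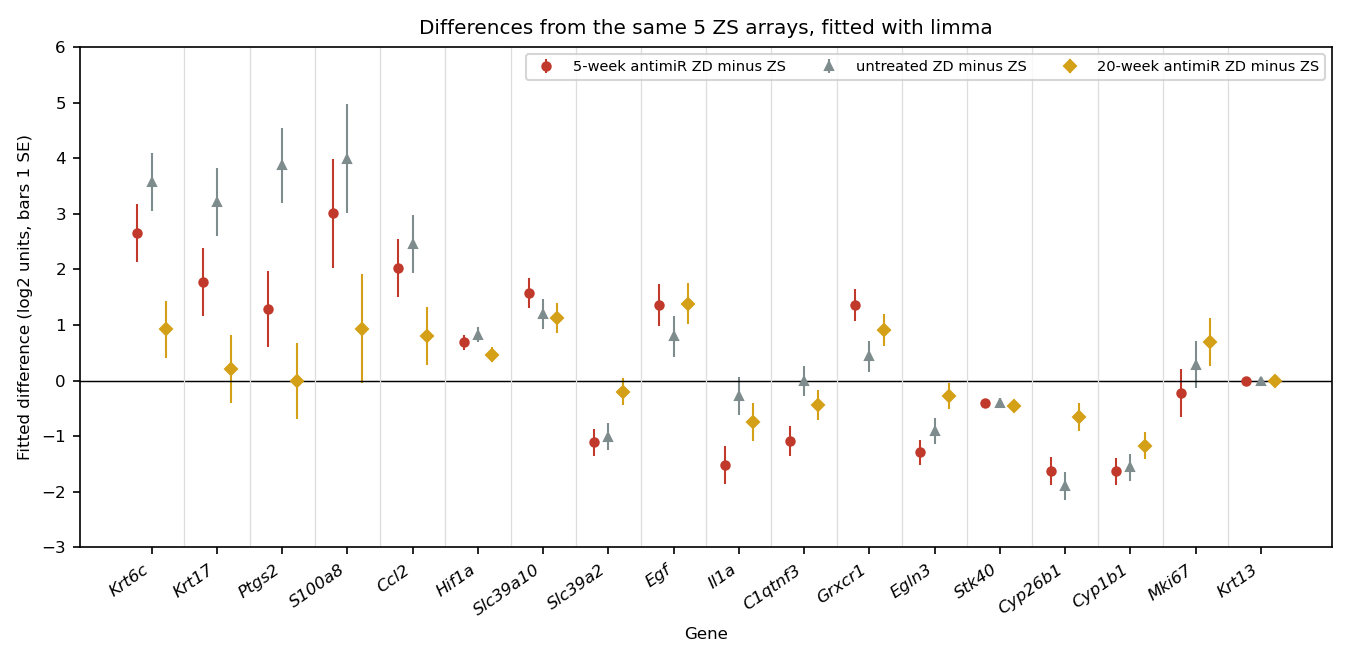
Fitted differences (log2 units, bars 1 SE of the limma fit) from the same 5 ZS arrays for 18 genes in 5-week antimiR (red), untreated ZD (grey) and 20-week antimiR rats (yellow). Ptgs2 stands at 1.29, 3.87 and -0.01, whereas Stk40 and Krt13 stand at like values in each group.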

How the data were processed

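RNA of oesophageal epithelium from 30 rats was measured on Affymetrix rat arrays. The deposited log2 values, 1 per probe set, were summarised by RMA in Affymetrix Expression Console according to the submitters' processing notes, with no version named. The authors' table held 31099 probe sets: 20832 with 1 gene symbol, 436 with several, 9774 with none used and 57 controls. Symbols came from the platform annotation, updated by gene ID for 20764. Where a gene had several probe sets (4526 of 14218 genes), the brightest on average over 30 arrays was kept.

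The fit used limma 3.58.1 in R 4.3.3 on all 30 arrays, 1 coefficient per group, with Benjamini-Hochberg adjustment and a threshold of 0.05; no pseudocount or filter was used. Medians lay at 5.37 to 5.45 on arrays of unedited rats and at 5.81 to 5.93 on knockout arrays. In the main fit the latter enter only the shared spread and, through the mean over 30 arrays, the choice of probe set. The fit was tested on simulated data beforehand. Arrays have no read depth, and the 5 arrays per group limit precision. Each p-value sets a difference against the spread between rats, pooled over all groups of the 30 arrays.

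Genes were named by rule: among genes that passed without overlap, the 12 that rose most and the 12 that fell most, up to 3 of each of 26 lists by adjusted p, the 6 differing most from untreated ZD, and Ptgs2, S100a8, S100a9, Krt17, Krt6c, Car2, Egln3, Stk40, Mki67, Krt13, Krt14 and Slc39a4. Every other gene with a value was chosen after its value was seen. Symbols that only name a locus were left out of the 12, 12 and 6 genes picked by size. Members and lists were chosen with earlier results of these data known. Alternatives were quantile normalization, median centring, no dim genes (lowest 30%), trend and robust fitting, array weights, fewer arrays in the fit, other choices of probe set, omitting each array in turn, and a covariate for smooth muscle level. The knockout arrays were not compared here.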

Additional observations from a re-analysis of the deposited data

Results flagged for a closer look

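Of 254 sets of 5 values checked (named genes and list means in the antimiR and ZS groups), 18 held an array far from the other four; chance gives about 1 in 20. ZS array 19 accounted for 7 of them, the most of any array. Its Car2 value of 7.26 stood above 4.98 to 5.64 on the other ZS arrays, and Bap1 at 8.71, the interferon gene Isg15 at 6.94 and the mast cell receptor Fcer1a at 5.55 were high there too. Lrat at 5.31, Cd3e at 4.50 and the neurotrophin receptor Ngfr at 3.50 were low on that array. ZS array 17 was high for Ahsp (4.01) and Ptgs2 (3.26) and low for Btc (5.28). Fxyd4 was low on ZS array 20 (9.94) and Mki67 on ZS array 18 (7.96).

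Among the antimiR arrays, array 7 stood apart for Ptgs2, at 6.76 against 3.37 to 4.20, and slightly for Clock (10.75). Array 6 was low for Elf5 (6.62) and Krt14 (12.24), and array 8 for Klf2, at 7.50 against 8.52 to 8.75. The mean of the published miR-31 targets was highest on array 9 (7.72), by a small margin over 7.67 to 7.68.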

How the results depend on the processing

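Between 771 (without antimiR array 8) and 1547 genes passed as single arrays were left out, with 388 to 810 higher and 383 to 737 lower; without ZS array 20, 427 were higher, and without ZS array 16, 421 were lower. Array weights gave 2131 (1082 higher, 1049 lower), holding 1285 of the 1291, and the smooth muscle covariate gave 291 (137 and 154). The covariate left 149 genes in untreated ZD against ZS, where left-out arrays gave 1193 (without ZD array 14) to 2425. For antimiR against untreated ZD, quantile normalization gave 2 genes, median centring 2, and left-out arrays 0 to 4. Klf2 turned to -0.20 with the probe set that is highest in unedited rats. The median of the miR-31 targets was 0.02 after median centring and 0.03 with the mean of probe sets, which put the clock list at -0.25. Without dim genes the retinoid median was -0.36, the protease median 0.29, T and B cell 0.56 and adipocyte 0.37. With the covariate the medians were 0.05 for proteases, -0.02 for smooth muscle, 0.02 for fibroblasts, 0.58 for endothelium and 0.24 for T and B cells. The causes were not tested, apart from fewer arrays or genes where these were left out. Of 63 named genes that passed, 50 did so in every fit without 1 array and 31 with the covariate. No scaling moved the median of all genes by more than 0.045. No paired analysis was possible because each rat has a number of its own. Genes near the low end of the arrays, such as Ptgs2 in ZS rats, may be at background, which limits their differences.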
